A study of Mus musculus with 52 samples.

Results

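Chemokines and their receptors were followed in mouse bone marrow stromal cultures that were exposed to test chemicals while they were induced to form bone. The genes were chosen by symbol: the CC, CXC and CX3C ligands (Ccl, Cxcl and Cx3cl1), the receptors Ccr, Cxcr, Cx3cr1 and Xcr1, the atypical receptors Ackr, and Ccrl2, with Cxcl12 left out by the rule. This gave 55 genes of the 22180 that had a probe set naming a single gene, and 43 of the 55 passed the filter on low values and were tested among 14911 genes. They comprised 19 CC ligands (17 tested), 12 CXC ligands (10 tested, among them Cxcl11, a transcribed pseudogene in the RefSeq table), the CX3C ligand Cx3cl1 and its receptor Cx3cr1 (both tested), 10 CC receptors (5 tested), 6 CXC receptors (5 tested), 5 atypical receptors (4 tested) and Xcr1 (not tested). Ccl19 and the Ccl21 genes were not analysed here.

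Total RNA of primary cultures from female C57BL/6J mice, 8 weeks old, was hybridised to 52 arrays (Affymetrix Mouse Gene 2.0 ST). Marrow of 2 to 4 animals was pooled for each experiment, and 7 days after plating the medium was changed to an osteoinductive one that held ascorbate, beta-glycerol phosphate, insulin and 10 nM dexamethasone. The 13 groups of 4 arrays were undifferentiated cells taken before that change (Naive) and, after 1 and 4 days in the medium, vehicle (Vh, DMSO at 0.1%), 100 nM of rosiglitazone (Rosi) or of LG100268 (LG268), 80 nM of tributyltin (TBT), TPhP and MEHP. The labels give no dose for TPhP, short for triphenyl phosphate, a flame retardant, or for MEHP, mono-2-ethylhexyl phthalate, a plasticiser metabolite. Rosiglitazone activates PPARgamma, the receptor that drives fat cell formation, LG268 activates its partner RXR, and TBT is an organotin known to bind both. Every group held 1 array from each of the pools numbered 12, 15, 19 and 20, so that each pool met every condition. All osteoinductive groups, vehicle included, shared the dexamethasone, and in Vh against Naive the medium, the DMSO and the longer culture cannot be told apart.

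Values are on a log2 scale, on which a difference of 1 is a doubling, and the array medians ran from 3.97 to 4.15. A gene was tested if at least 4 arrays lay above 4.05, the median of the whole table, and was called where limma's adjusted p was below 0.05. Genes said to have risen or fallen were called, and a difference is given ± its standard error (SE) with 4 arrays a group. Values given with the block come from a fit that also holds the pool, so that arrays are compared within pools. Shares of all genes called are given for the fit without the block. Member counts with the block therefore have no share of all genes to be read against. Signals of different probe sets are not set against each other as amounts. The cultures were labelled as mesenchymal stromal cells, and both stromal and macrophage genes gave strong signals in them. In Naive cells the mean was 11.80 for the collagen gene Col1a2 and 12.33 for Lyz2, the lysozyme of macrophages and other myeloid cells, and all 16 macrophage markers and all 11 stromal markers measured passed the filter. These are whole cultures, so fewer cells of a type and less RNA per cell cannot be told apart in any result below.

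Chemokines are small secreted proteins that guide cells along a gradient by binding receptors coupled to G proteins on the cell surface. The inflammatory ones are made on demand, above all by macrophages and stromal cells that sense cytokines or microbes through NF-kB and interferon signals, and they call in monocytes, neutrophils and lymphocytes. In bone marrow the system also keeps blood cell precursors in place and lets monocytes leave for the blood, and Ccl9 with its receptor Ccr1 is known from osteoclasts and their precursors. Atypical receptors bind chemokines without this signalling and remove them from the tissue.

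The promoters of Ccl6, Cxcl14, Ccr3 and Cxcl10 are shown because they belong to members with contrasting behaviour and hold a motif that was searched for: Ccl6, whose RNA fell with Rosi at day 4, Cxcl14, which rose with LG268 and TBT, Ccr3, which fell with several chemicals, and Cxcl10, which holds both inflammatory motifs. Each run is the 250 bases before the start of the gene, 5′ to 3′ on the gene's own strand, from RefSeq on GRCm38.p6, with motif matches in capitals.
Ccl6 (chr11:83593088-83593337, reverse strand): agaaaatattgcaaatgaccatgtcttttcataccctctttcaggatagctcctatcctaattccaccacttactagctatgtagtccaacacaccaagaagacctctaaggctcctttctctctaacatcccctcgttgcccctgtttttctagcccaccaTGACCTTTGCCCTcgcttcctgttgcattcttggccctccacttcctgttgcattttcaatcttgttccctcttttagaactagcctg
Cxcl14 (chr13:56296552-56296801, reverse strand): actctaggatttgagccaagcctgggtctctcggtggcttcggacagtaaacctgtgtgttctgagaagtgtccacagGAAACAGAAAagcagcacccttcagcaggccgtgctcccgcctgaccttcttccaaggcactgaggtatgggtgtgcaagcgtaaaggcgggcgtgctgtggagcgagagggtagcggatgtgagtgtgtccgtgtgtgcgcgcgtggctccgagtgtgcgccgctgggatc
Ccr3 (chr9:124021721-124021970, forward strand): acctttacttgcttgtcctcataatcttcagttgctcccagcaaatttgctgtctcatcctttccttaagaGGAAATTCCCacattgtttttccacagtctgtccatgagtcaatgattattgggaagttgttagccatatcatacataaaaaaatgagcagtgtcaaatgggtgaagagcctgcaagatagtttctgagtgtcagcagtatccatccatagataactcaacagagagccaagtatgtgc
Cxcl10 (chr5:92348890-92349139, reverse strand): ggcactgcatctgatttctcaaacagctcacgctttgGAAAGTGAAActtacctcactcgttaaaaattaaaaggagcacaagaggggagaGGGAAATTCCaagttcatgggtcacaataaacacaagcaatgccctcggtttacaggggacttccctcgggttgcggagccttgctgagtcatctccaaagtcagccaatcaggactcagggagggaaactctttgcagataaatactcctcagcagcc
An NF-kB type motif (GGGA, any 2 bases, then TTCC) and an interferon response type motif (GAAA, any 2 bases, then GAAA) were looked for on both strands in the same window of every gene in the promoter table, where 41 of the 55 members were found. The first was in 1.21% of the 32851 windows and in those of Cxcl1, Cxcl2, Cxcl3, Cxcl10, Ccl1 and Ccr3. In Cxcl1, Cxcl2, Cxcl3 and Ccl1 the matches on both strands overlap by all but 1 base, so each is a single site in the sequence. The second was in 2.98% of the windows and in those of Cxcl10 and Cxcl14. After the values had been seen, a direct repeat of the kind PPAR:RXR pairs are known to bind (AGGNCA, any 1 base, then AGGNCA) was also searched on both strands: 0.338% of the windows held it, and among the members only that of Ccl6, 88 to 76 bases before the start on the opposite strand. A match describes the letters alone. Of the members with the NF-kB type motif, Cxcl3 was not tested, and of the others Ccr3 was called against vehicle and Cxcl1, Cxcl2, Cxcl10 and Ccl1 were not.

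The members lie mostly in clusters of neighbours. Of those with a position in the RefSeq table, 14 were on chromosome 11, 14 on chromosome 9 and 11 on chromosome 5. On chromosome 11, Ccl2, Ccl7, Ccl11, Ccl12, Ccl8 and Ccl1 follow each other among the members, as do Ccl5, Ccl9, Ccl6, Ccl3 and Ccl4, and on chromosome 9 Ccr1, Ccr1l1, Ccr3 and Ccr2 are neighbours. Neighbours could differ widely in signal range: Ccl11 stayed at or below 4.67 on all 52 arrays and failed the filter, while Ccl2 reached 10.97 and Ccl8 11.61. Whether related neighbours such as Ccl2, Ccl7 and Ccl12 share part of their signal on the array was not tested.

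The 10 members with the highest mean signal were Ccl9 (11.51), Ccl6 (9.88), Ccl3 (9.08), Cxcl16 (8.28), Cxcl14 (8.22), Cxcr4 (7.75), Ccl2 (7.70), Ccr1 (7.68), Ccl7 (7.58) and Cx3cr1 (7.32). Signals near background were those of the 12 members that failed the filter: the eotaxins Ccl11 and Ccl26, Cxcl3 and Cxcl15, the lymphocyte receptors Ccr4, Ccr6, Ccr8, Ccr9 and Cxcr6, the dendritic cell receptor Xcr1, Ccr1l1 and Ackr1. Their means ran from 1.76 (Cxcl3) to 3.63 (Ccl11). The genes that spanned the widest range were Ccl8, from 4.30 to 11.61, and Cxcl9, an interferon-induced ligand of Cxcr3, from 4.99 to 11.12. At the other end Ccl25, a gut ligand, stayed between 4.62 and 5.35 on every array.

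Counts of members called differed widely between comparisons. Against Naive, 5 of the 43 were called in vehicle at day 1 (1 higher and 4 lower), where 17.7% of all genes tested were called (12.9% higher and 4.86% lower). At day 4 there were 8 (3 higher and 5 lower), where 28.9% of all genes were called (17.4% higher and 11.5% lower). The block on pool gave 6 and 14, and it added Ccl6, Ccl9, Ccl8, Ccl12 and Ackr4 as higher and Ccl4 as lower at day 4, with adjusted p from 0.00673 to 0.0271, and Ccrl2 as lower at day 1 (-0.76 ± 0.40, adjusted p = 0.203, and 0.024 with the block). From day 1 to day 4 of vehicle 3 members were called (1 higher and 2 lower) against 12.9% of all genes (4.6% higher and 8.29% lower), and 5 with the block, which added Cxcl14 (0.81) and Ccr2 (-0.96). Against vehicle at day 1, Rosi gave 3 members, all lower, where 7.25% of all genes were called (4.16% higher and 3.08% lower). LG268 gave 1, lower, where 0.241% were (0.228% higher and 0.0134% lower), and TBT 1, lower, where 0.543% were (0.496% higher and 0.0469% lower). TPhP (0.215%) and MEHP (0.523%) gave none by limma, with 5 and 7 members at an unadjusted p below 0.05. The block gave 2 for LG268, 3 for TBT, 2 for MEHP and 0 for TPhP at that day.

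At day 4, Rosi gave 14 members, all lower, which was 32.6% of the members against 49.1% of all genes called in either direction, 21.3% higher and 27.7% lower. LG268 gave 5 (3 higher and 2 lower), where 6.47% of all genes were called (4.21% higher and 2.26% lower). TBT gave 6 (2 higher and 4 lower), where 20.1% were (10.6% higher and 9.42% lower). MEHP gave 3, all lower, where 23.8% were (12.1% higher and 11.7% lower), and TPhP none, where 18.9% were, with 2 members at an unadjusted p below 0.05. The block raised these to 9 for LG268, 9 for TBT, 5 for MEHP and 2 for TPhP, and to 20 (2 higher and 18 lower) for Rosi, where it added Ccl7, Ccl8, Ccl24 and Ccl4 as lower and Cxcl13 and Ccl28 as higher. Without the block, the shares of members called by Rosi, TBT, TPhP and MEHP at day 4 were below those of all genes, and that of LG268 was above. The median difference of the 43 members under Rosi at day 4 was -0.52 beside -0.05 for all genes tested, and 34 of the 43 lay below 0. In all, 20 members were called at least once in these 13 comparisons.

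**Figure D1:**
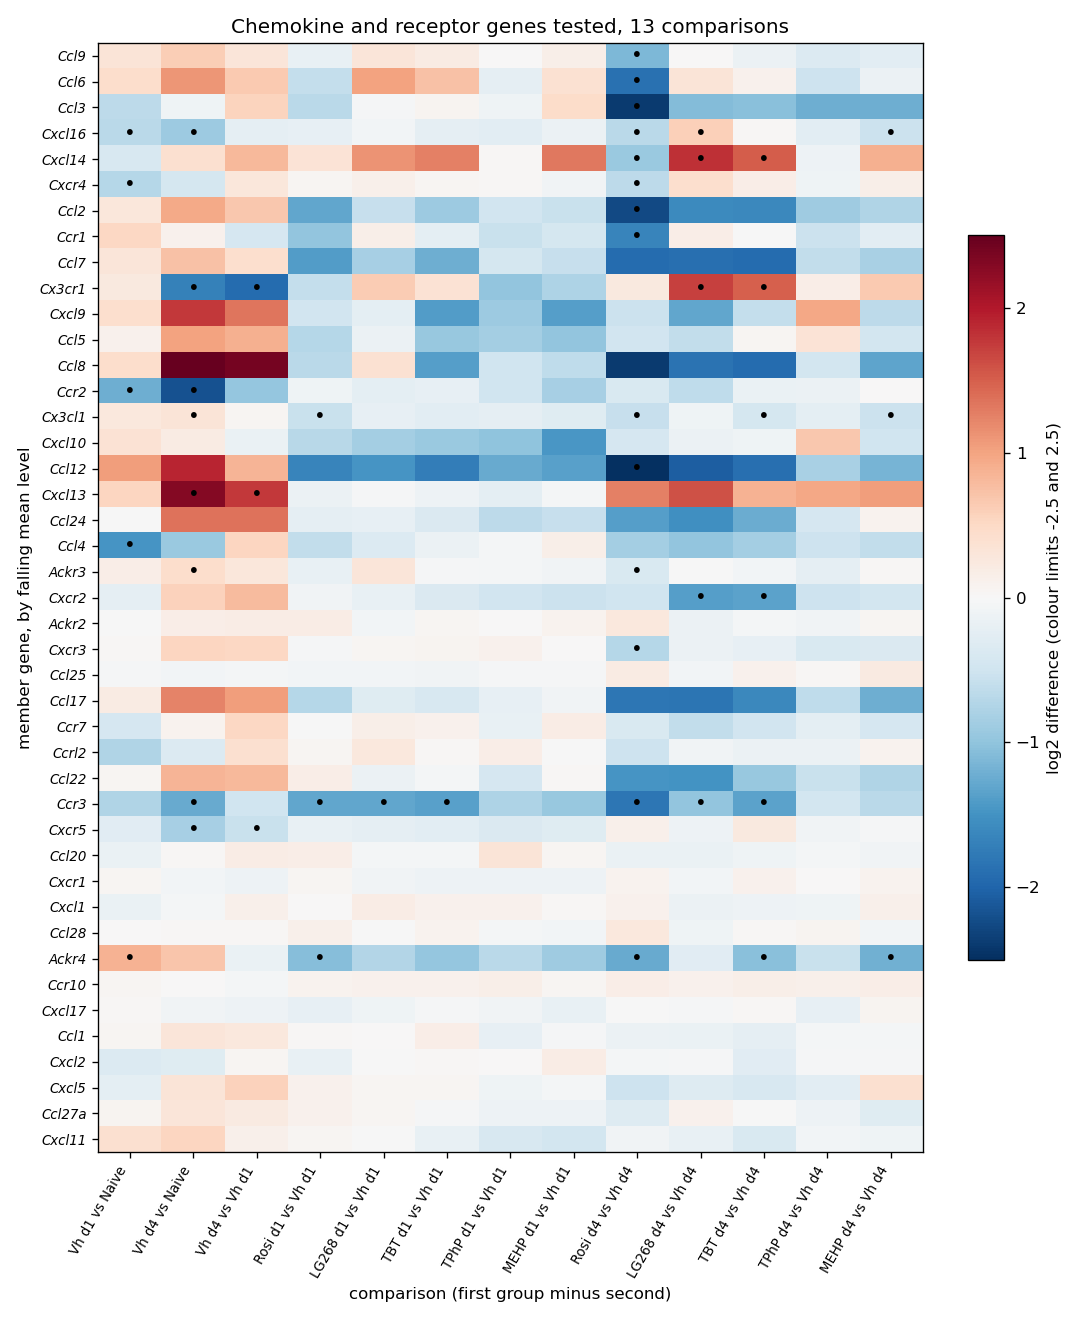
Log2 differences (colour) of the 43 members tested, one a row by falling mean signal, in 13 comparisons, one a column, with a dot where the adjusted p was below 0.05. The Rosi column at day 4 holds 14 dots, all on blue cells, while Cxcl14 and Cx3cr1 are red in the LG268 and TBT columns of that day.

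Ccl2, Ccl7 and Ccl12 attract monocytes through Ccr2, and Ccl8 is their neighbour that in mouse acts on Ccr8. In vehicle at day 4 the pools split into a high and a low pair. Ccl2 stood at 10.97 and 10.72 in pools 12 and 15 and at 7.10 and 6.88 in pools 19 and 20. Ccl12 was at 9.58 and 9.24 in the first pair and at 5.97 and 5.72 in the second, and Ccl8 at 11.61 and 10.61 against 6.42 and 5.73. In Naive cells the 4 pools lay far closer, with Ccl2 between 7.40 and 8.74 and Ccl8 between 5.41 and 6.42. Summed marker levels divided the vehicle pools in the same way. The neutrophil level was 12.74 and 12.46 in pools 12 and 15 and 11.22 and 11.38 in pools 19 and 20, and the monocyte level 13.46 and 13.29 against 12.69 and 12.64. The T and NK cell level was 10.45 and 8.87 against 7.92 and 7.98, and the stromal level ran the opposite way, at 12.41 and 12.78 against 13.30 and 13.37. Their part in the split was not tested.

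Under Rosi at day 4 one array stood apart from the other 3. Ccl2 was at 5.99, 5.80 and 6.02 in pools 12, 19 and 20 and at 8.81 in pool 15. Ccl12 was at 4.00, 3.62 and 4.10 and, in pool 15, at 7.91. Ccl8 was at 4.64, 4.30 and 4.45 and, in pool 15, at 11.44, near its highest level in the series. Each pool lay below its own vehicle array in Ccl2 and Ccl12, though the ranges of the groups overlapped.

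Ccl12 fell by 2.72 ± 0.80 (adjusted p = 0.00421) and Ccl2 by 2.26 ± 0.85 (adjusted p = 0.0236) with Rosi at day 4. Ccl7 differed by -1.92 ± 0.88 and Ccl8 by -2.38 ± 1.17, which missed the threshold (adjusted p = 0.0681 and 0.0879) and passed it with the pool as a block (0.0245 and 0.0404). Left without pool 12, which holds the highest vehicle array, the Ccl12 difference was -1.76 (adjusted p = 0.102) and that of Ccl2 -1.36 (adjusted p = 0.227). Leaving out only the Rosi array of pool 15, a choice made after seeing the data, gave -3.72 for Ccl12, -2.98 for Ccl2, -2.80 for Ccl7 (adjusted p = 0.0073) and -4.13 for Ccl8 (adjusted p = 0.000984). In 3 Rosi arrays Ccl12 lay near the table's median of 4.05, so its size is uncertain. In the fit without the pool 15 array 22 members were called, 20 lower and 2 higher, against 52.3% of all genes tested, 29.4% lower.

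No other chemical gave a call for these 4 ligands without the block. With LG268 at day 4, Ccl2 was at 8.57 in pool 12 and between 6.79 and 7.00 in the others, and with TBT it was at 9.20 in pool 12 and between 6.58 and 6.79 in the others. Every pool thus lay below its vehicle array for Ccl2 and Ccl12 with both chemicals. The Ccl12 differences were -2.05 ± 0.80 for LG268 (adjusted p = 0.12, and 0.0428 with the block) and -1.89 ± 0.80 for TBT (adjusted p = 0.0918, and 0.0351 with the block), and Ccl7 with TBT differed by -1.92 ± 0.88 (adjusted p = 0.12, and 0.0473 with the block). MEHP at day 4 kept the split of its vehicle, with Ccl2 at 10.77 and 9.65 in pools 12 and 15 and at 5.93 and 6.28 in pools 19 and 20. TPhP at day 4 had its highest Ccl2 value, 10.34, in pool 15.

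**Figure D2:**
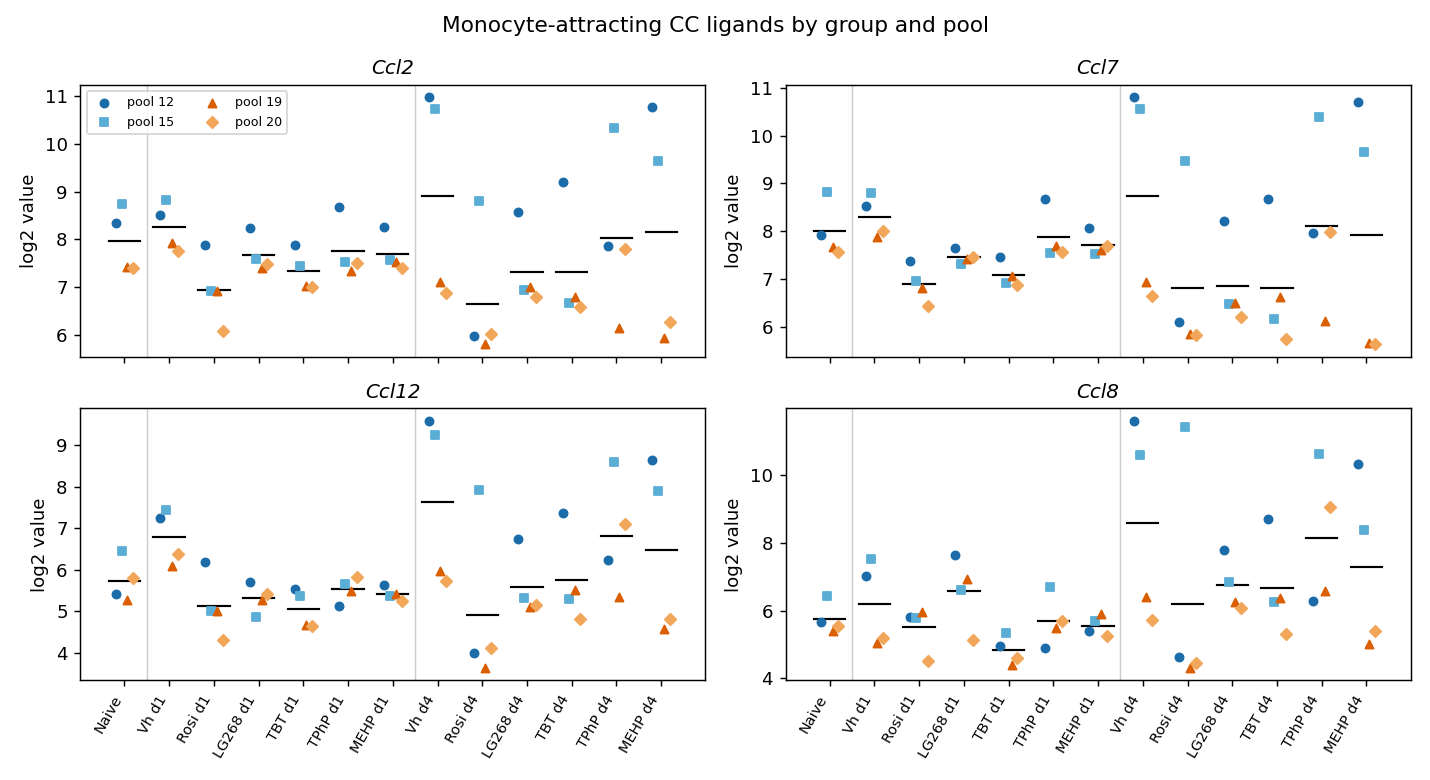
Log2 values of Ccl2, Ccl7, Ccl12 and Ccl8 in 13 groups, with a marker for each pool and a bar at the mean of 4 arrays. In vehicle at day 4 pools 12 and 15 lie far above pools 19 and 20, and the Rosi array of pool 15 lies far above the other 3 of its group.

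The split was shared by other CC ligands. Ccl17 and Ccl22, both ligands of Ccr4, were at 8.81 and 8.54, and at 7.46 and 7.75, in pools 12 and 15 of vehicle at day 4, and between 3.61 and 3.77 in pools 19 and 20. Before induction, Ccl17 was already high in the Naive array of pool 15, at 8.21 beside a Naive mean of 4.93. The eotaxin Ccl24 was at 8.86 and 8.06 against 5.43 and 5.23. Of the 8 arrays with the highest Ccl2, 8 were also among the top 8 for Ccl12, 7 for Ccl7, Ccl8 and Ccl24, 6 for Ccl17, Ccl5 and Cxcl9, 5 for Ccl22, 4 for Ccl3 and 3 for Ccl4. Ccl17, Ccl22, Ccl24, Ccl5 and Cxcl9 were not called in any of the 13 comparisons in the fit without the block. Under Rosi at day 4, Ccl24 (-1.38 ± 0.63, adjusted p = 0.0648) passed with the block (0.0478), and without the Rosi array of pool 15 Ccl24 (-2.08, adjusted p = 0.00442) and Ccl17 (-2.52, adjusted p = 0.0433) passed.

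Ccl6 and Ccl9 are ligands of Ccr1 made by myeloid cells, and Ccl3 is an inflammatory ligand of Ccr1. In vehicle at day 4, Ccl6 was at 11.43, 10.87, 9.72 and 9.29 in pools 12, 15, 19 and 20, and under Rosi at 8.20, 10.92, 7.47 and 7.26. Ccl9 was at 12.28, 12.04, 11.54 and 11.34 in vehicle and at 10.32, 12.09, 10.17 and 10.11 under Rosi. Pool 15 is again the exception, since its Rosi array matched its vehicle array in both genes, while the other 3 pools were lower by more than 1 unit.

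Ccl3 separated the groups completely. Its vehicle arrays at day 4 read 11.15, 10.37, 8.93 and 9.13, and the Rosi arrays 7.56, 8.59, 6.83 and 7.02. The gene fell by 2.40 ± 0.60 (adjusted p = 0.000892) in 4 of 4 pools, and its call held with each pool left out. Ccl6 fell by 1.87 ± 0.53 (adjusted p = 0.00277) and Ccl9 by 1.13 ± 0.26 (adjusted p = 0.000335), each in 3 of 4 pools. Without pool 12 the Ccl6 difference was -1.41 (adjusted p = 0.0548). Without the Rosi array of pool 15 the differences were -2.69 for Ccl6 and -1.60 for Ccl9.

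The other chemicals left Ccl6 and Ccl9 without a call. Ccl3 was lower at day 4 in 4 of 4 pools with each of them, with mean differences from -1.05 (TBT) to -1.23 (MEHP), with ranges that overlapped vehicle. These differences missed the threshold without the block (adjusted p = 0.31 for LG268, 0.231 for TBT, 0.165 for TPhP and 0.144 for MEHP) and passed with it (0.0185, 0.0112, 0.00306 and 0.00239). Ccl4, an inflammatory ligand beside Ccl3 on the chromosome, was at 7.19, 6.92, 6.89 and 6.59 in Naive cells and at 5.89, 5.45, 5.10 and 5.28 in vehicle at day 1. It fell by 1.47 ± 0.48 (adjusted p = 0.0269), a call that was lost without pool 15, 19 or 20 (adjusted p from 0.115 to 0.147).

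Ccr1, the receptor of these ligands, followed Ccl6 and Ccl9 under Rosi. It was at 8.63, 8.56, 7.15 and 7.00 in vehicle at day 4 and at 5.45, 8.52, 5.28 and 5.49 under Rosi, so that 3 Rosi arrays lay below all vehicle arrays. The difference was -1.65 ± 0.50 (adjusted p = 0.00498), -1.14 without pool 12 (adjusted p = 0.121) and -2.43 without the Rosi array of pool 15 (adjusted p = 9.27e-06).

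Macrophage markers moved beside these genes. Under Rosi at day 4, 27.7% of all genes tested were called lower. All 16 macrophage markers were called lower there (median -1.16), among them Lyz2 (-1.02 ± 0.11) and Itgam (-1.52 ± 0.21). The log2 of their summed level was 13.59, 13.29 and 13.27 in pools 12, 19 and 20 of Rosi and 14.49 in pool 15, beside 14.63 to 14.92 in vehicle. The Rosi array with the high chemokine values thus also had the highest macrophage level of its group, while its adipocyte marker level (14.65) was close to those of the other Rosi arrays (14.79 to 14.82). It also stood apart in its monocyte (13.18 beside 11.51 to 12.01), dendritic cell (10.77 beside 10.02 to 10.14) and endothelial levels (8.73 beside 10.55 to 10.94). Its neutrophil level (11.54) lay within those of the others (10.95 to 11.99). With LG268 at day 4 the macrophage level was 14.72 to 14.84, and 1 of the 16 markers was called higher and none lower (4.21% and 2.26% of all genes). Of the monocyte list 4 of 9 markers were lower under Rosi at day 4, and of the stromal list 8 of 11, beside the 27.7% of all genes. What part these changes have in the chemokine results was not tested.

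**Figure D3:**
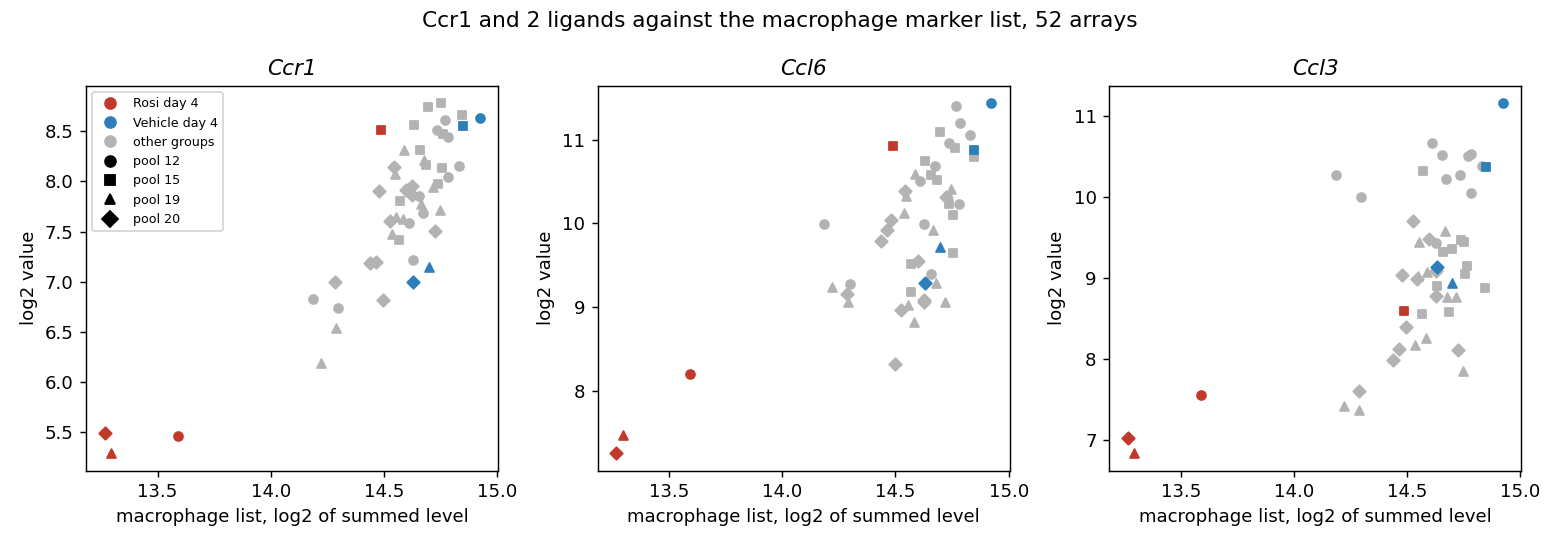
Log2 values of Ccr1, Ccl6 and Ccl3 (vertical axes) against the log2 of the summed level of 16 macrophage markers (horizontal axes) on 52 arrays, with Rosi at day 4 in red and vehicle at day 4 in blue. The Rosi arrays of pools 12, 19 and 20 sit at the lower left, between 13.27 and 13.59, and that of pool 15 at 14.49 among the other groups.

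Cxcl14 is a tissue chemokine made by stromal and epithelial cells, and its signalling receptor is debated. It went up with LG268 and TBT and down with Rosi at day 4. In vehicle at day 4 it stood at 7.54, 8.95, 8.12 and 7.65 in pools 12, 15, 19 and 20. With LG268 it was at 10.28, 9.95, 9.73 and 9.64, and with TBT at 10.03, 9.87, 9.12 and 9.33, above all 4 vehicle arrays in both. Under Rosi it was at 7.76, 7.60, 6.57 and 6.65.

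Cxcl14 rose by 1.83 ± 0.39 with LG268 (adjusted p = 0.00207) and by 1.52 ± 0.39 with TBT (adjusted p = 0.00441), in 4 of 4 pools each, and both calls held with each pool left out. With Rosi it fell by 0.92 ± 0.39 (adjusted p = 0.0493) in 3 of 4 pools, a call lost without pool 15, 19 or 20 (adjusted p from 0.137 to 0.272). At day 1 it was higher in 4 of 4 pools with LG268, TBT and MEHP without a call, and the block made calls of all of them: 1.13 ± 0.39 for LG268 (adjusted p = 0.707, and 0.0196 with the block), 1.26 for TBT (0.201 and 0.00341) and 1.31 for MEHP (0.162 and 0.0021). For MEHP at day 4 the difference was 0.89 ± 0.39 (adjusted p = 0.101, and 0.00707 with the block). The test of the day 4 against the day 1 difference was not called for LG268 (0.70 ± 0.56, adjusted p = 0.912) or TBT (0.26 ± 0.56, adjusted p = 0.864).

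Cxcl16 is a membrane-bound ligand of Cxcr6, which itself failed the filter. It was highest in Naive cells, at 8.95, 9.04, 9.25 and 9.33, and was at 8.33, 8.38, 8.19 and 8.07 in vehicle at day 4. It fell from Naive by 0.67 ± 0.15 at day 1 (adjusted p = 0.00141; 0.0646 without pool 20) and 0.90 ± 0.15 at day 4 (adjusted p = 1.46e-05). Rosi at day 4, at 7.76, 7.69, 7.37 and 7.46, lay below all vehicle arrays, a fall of 0.67 ± 0.15 (adjusted p = 0.000213). LG268, at 9.04, 8.45, 8.93 and 8.95, lay above all of them, a rise of 0.60 ± 0.15 (adjusted p = 0.0091) that was lost without pool 19 (adjusted p = 0.0901) or 20 (0.176). MEHP gave a fall of 0.54 ± 0.15 (adjusted p = 0.00662; 0.0803 without pool 19).

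**Figure D4:**
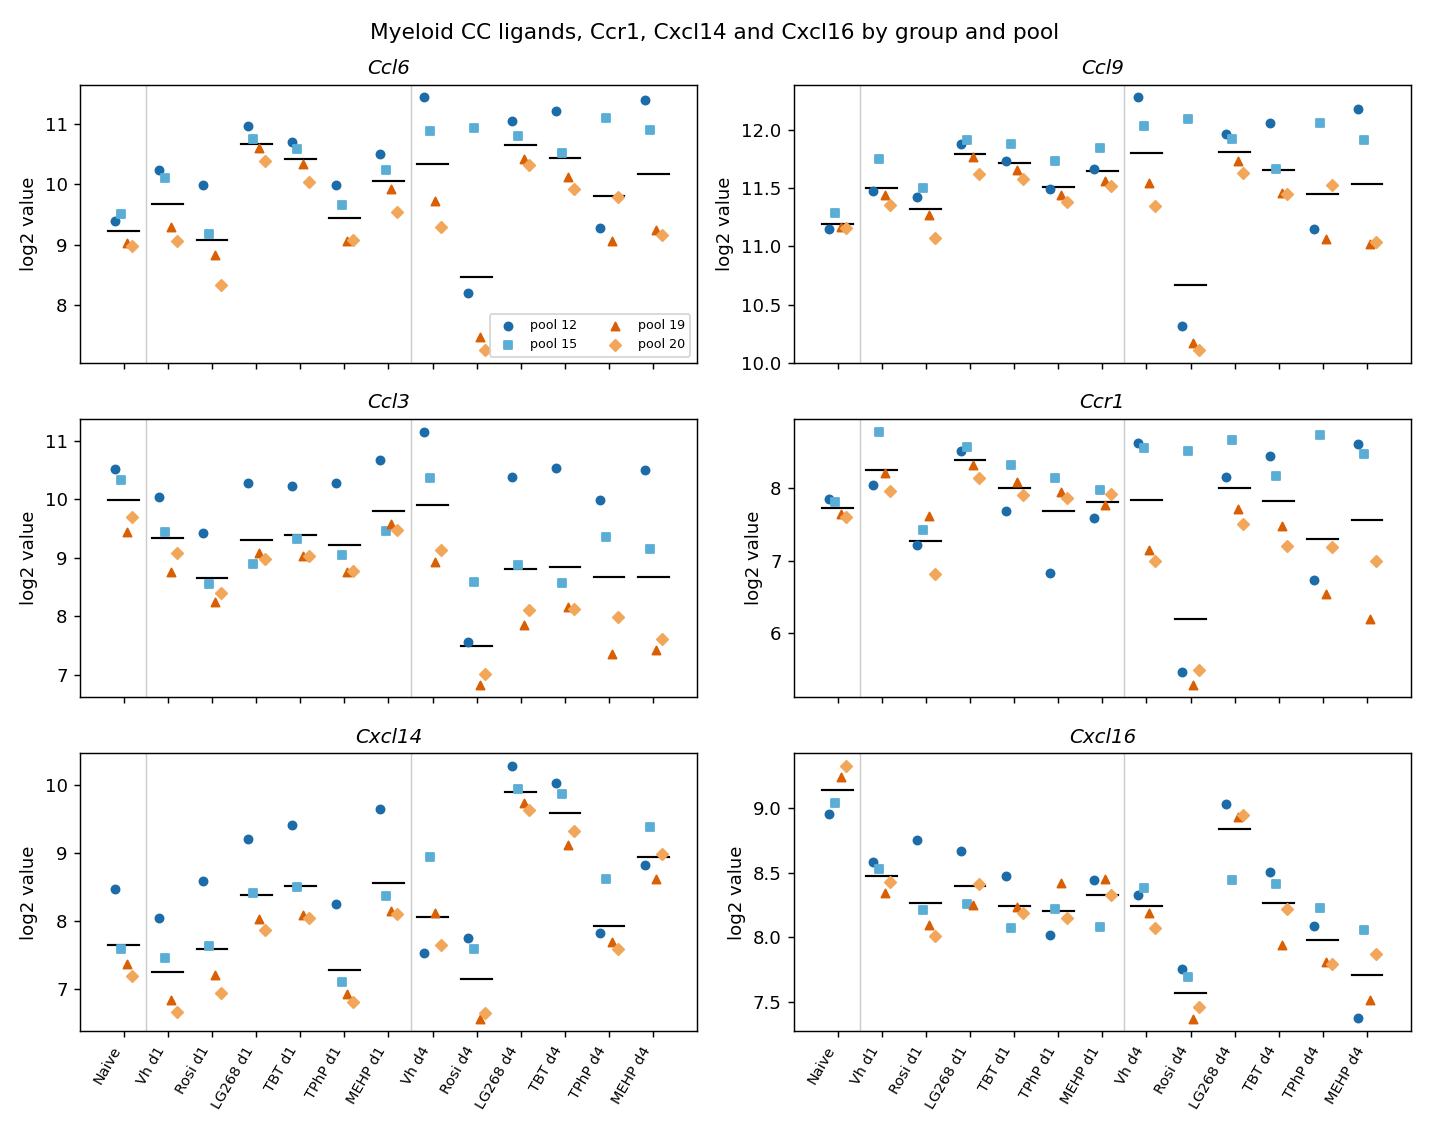
Log2 values of Ccl6, Ccl9, Ccl3, Ccr1, Cxcl14 and Cxcl16 in 13 groups, with a marker for each pool and a bar at the mean of 4 arrays. The Rosi array of pool 15 at day 4 stays level with vehicle in Ccl6, Ccl9 and Ccr1, while Cxcl14 with LG268 and TBT at day 4 lies above every vehicle array.

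Cxcl13 attracts B cells to follicles through Cxcr5. It was near background in Naive cells (3.78 to 4.17) and at 5.39, 7.04, 6.43 and 6.36 in vehicle at day 4, a rise of 2.30 ± 0.56 (adjusted p = 0.00147) whose size is uncertain for that reason. From day 1 of vehicle, at 4.36 to 4.87, it rose by 1.76 ± 0.56 (adjusted p = 0.0285), a call lost without pool 15, 19 or 20 (adjusted p from 0.16 to 0.191). With the chemicals at day 4 its mean was higher still, at 7.89 with LG268, 7.57 with Rosi, 7.36 with MEHP, 7.26 with TPhP and 7.17 with TBT, but none of these differences from vehicle was called. Rosi (1.27 ± 0.56, adjusted p = 0.0563) and LG268 (1.59 ± 0.56, adjusted p = 0.0779) passed with the block (0.0328 and 0.0369).

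Cxcr5 went the other way. Its arrays ran from 4.95 to 5.44 in Naive cells and from 4.06 to 4.63 in vehicle at day 4, and it fell by 0.83 ± 0.18 (adjusted p = 0.000389), and by 0.55 ± 0.18 from day 1 to day 4 (adjusted p = 0.0325). The second call was lost without pool 15, 19 or 20 (adjusted p from 0.092 to 0.159). Beside it, 5 of 7 B cell markers tested were lower in vehicle at day 4 than in Naive cells, among them Ms4a1, the CD20 gene (-2.89 ± 0.44), and 3 of 7 were lower than in vehicle at day 1. Of all genes, 11.5% and 8.29% were lower in these 2 comparisons. The summed B cell level was 10.03 to 10.87 in Naive cells and 9.53 to 10.23 in vehicle at day 4. That sum weighs Ebf1 most, the strongest signal of the list, with means of 9.03 in Naive cells and 9.17 in vehicle at day 4. The part of the B cell markers in the Cxcr5 values was not tested.

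The interferon-induced ligands Cxcl9 and Cxcl10 were not called in any of the 13 comparisons, nor was Cxcl11, which the RefSeq table lists as a transcribed pseudogene. Cxcl9 ranged from 4.99 to 10.32 within vehicle at day 1 alone. Their receptor Cxcr3, known from activated T cells, was called lower under Rosi at day 4 (-0.72 ± 0.22, adjusted p = 0.00604), but both groups hold an array that stands apart. Vehicle was at 6.35 in pool 12 and 5.03 to 5.21 in the others, and Rosi at 5.63 in pool 15 and 4.34 to 4.52 in the others. The summed T and NK cell marker level was high on the same arrays, at 10.45 in pool 12 of vehicle (7.92 to 8.87 in the others) and 9.86 in pool 15 of Rosi (7.27 to 8.10 in the others). Of 8 such markers tested, 1 was called lower under Rosi, where 27.7% of all genes were, and the part of this level in the Cxcr3 values was not tested. Without pool 12 the difference was -0.35 (adjusted p = 0.228), and without pool 19 or 20 the adjusted p was 0.0552 and 0.0606.

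Cxcr2 is the neutrophil receptor of Cxcl1, Cxcl2, Cxcl3 and Cxcl5. Of these ligands, Cxcl1, Cxcl2 and Cxcl5 had means of 4.34, 3.76 and 3.74, near the table's median, and were not called. Cxcl3 failed the filter. Ppbp, a chemokine gene that the choice by symbol leaves out, had a mean of 9.67 (8.40 to 11.02 over the arrays). Cxcl5 was higher on a few arrays, reaching 6.23 with MEHP at day 4 and 4.73 in vehicle at day 4, both in pool 12. Cxcr2 in vehicle at day 4 was at 7.09 and 6.78 in pools 12 and 15 and at 5.39 and 5.38 in pools 19 and 20. It was at 4.67, 4.92, 4.94 and 4.58 with LG268, below all vehicle arrays, and at 5.50, 4.53, 4.90 and 4.36 with TBT.

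Cxcr2 fell by 1.38 ± 0.38 with LG268 (adjusted p = 0.0199) and by 1.33 ± 0.38 with TBT (adjusted p = 0.0102). Rosi at day 4 differed by -0.50 without a call (adjusted p = 0.294), with its pool 15 array at 7.24, the highest Cxcr2 value of the series. Without that array, a choice made after seeing the data, the Rosi difference was -1.03 (adjusted p = 0.0142). The LG268 call was lost without pool 12 (-1.03, adjusted p = 0.162), 15 (0.0651) or 20 (0.0562), and that of TBT without pool 15 (-1.03, adjusted p = 0.0561). Neutrophil markers moved in the same groups: 7 of 12 were called lower with LG268 and 4 of 12 with TBT at day 4, with S100a8 at -1.96 and -1.99. Of all genes, 2.26% and 9.42% were lower. The summed neutrophil level was 9.60 to 10.95 with LG268, 10.20 to 11.44 with TBT and 10.95 to 11.99 with Rosi, beside 11.22 to 12.74 in vehicle. Whether it accounts for the receptor's change was not tested.

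Cxcr4 is the marrow homing receptor of Cxcl12. It fell in vehicle at day 1, from 8.26, 8.41, 8.23 and 8.18 in Naive cells to 7.77, 7.61, 7.41 and 7.44, by 0.71 ± 0.24 (adjusted p = 0.0312), a call lost without pool 15, 19 or 20 (adjusted p from 0.115 to 0.16). Under Rosi at day 4 it was at 7.45, 7.89, 6.62 and 6.74 against 8.70, 8.11, 7.19 and 7.33 in vehicle. Each pool was lower, and the gene fell by 0.66 ± 0.24 (adjusted p = 0.0187; 0.103 without pool 12 and 0.062 without pool 20).

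Cx3cr1 marks patrolling monocytes and tissue macrophages, and Cx3cl1, fractalkine, is its main ligand. The receptor was at 7.44 to 7.99 in Naive cells and at 7.68 to 8.31 in vehicle at day 1. By day 4 of vehicle it stood at 4.85, 5.97, 6.77 and 6.75, a fall of 1.69 ± 0.36 from Naive (adjusted p = 0.000342) and of 1.93 ± 0.36 from day 1 (adjusted p = 0.000278). Both held with each pool left out.

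Cx3cr1 was higher with LG268 and TBT. At day 4 the arrays read 8.51, 7.64, 7.53 and 7.47 with LG268 and 7.81, 7.49, 7.33 and 7.67 with TBT, all above vehicle. The rises over vehicle were 1.71 ± 0.36 (adjusted p = 0.00156) and 1.49 ± 0.36 (adjusted p = 0.00215), in 4 of 4 pools each, and held with each pool left out. Rosi, TPhP and MEHP at day 4 had means of 6.32, 6.24 and 6.73 beside 6.08 in vehicle, and none was called. At day 1 neither LG268 (8.53 to 8.80) nor TBT (8.24 to 8.50) was called against vehicle, and the change of the difference from day 1 to day 4 was not called either (1.08 ± 0.51 for LG268, adjusted p = 0.791, and 1.13 ± 0.51 for TBT, adjusted p = 0.261). The macrophage level at day 4 was 14.46 to 14.84 with LG268 and TBT and 14.63 to 14.92 in vehicle. The summed monocyte level was lower than vehicle in every pool with both, at 12.08 to 12.86 with LG268 and 12.01 to 12.97 with TBT beside 12.64 to 13.46. Of its 9 markers 1 was called higher with LG268 and none lower, and 1 higher and 1 lower with TBT. Of all genes, 4.21% were higher and 2.26% lower with LG268, and 10.6% and 9.42% with TBT. The marker called higher in both was Treml4 (1.32 and 1.42). The part of these levels in the Cx3cr1 values was not tested.

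Cx3cl1 moved over a narrow range. It was at 6.25 to 6.40 in vehicle at day 4 and rose there by 0.31 ± 0.12 over Naive (adjusted p = 0.0455), a call lost without pool 12, 19 or 20 (adjusted p from 0.0634 to 0.353). Rosi at day 1 read 5.66, 5.77, 5.73 and 5.73 against 6.30, 6.32, 6.07 and 6.42 in vehicle, with no overlap. The gene fell by 0.55 ± 0.12 with Rosi at day 1 (adjusted p = 0.00145) and by 0.57 ± 0.12 at day 4 (adjusted p = 9.47e-05), and by 0.54 ± 0.12 with MEHP at day 4 (adjusted p = 0.000717), and these 3 calls held with each pool left out. TBT at day 4 gave a fall of 0.44 ± 0.12 (adjusted p = 0.00714; 0.0566 without pool 19).

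Ccr2 lets inflammatory monocytes leave the marrow toward Ccl2, Ccl7 and Ccl12. It was at 8.07, 8.19, 8.41 and 8.35 in Naive cells, at 6.41, 7.07, 7.22 and 7.46 in vehicle at day 1 and at 6.55, 6.18, 5.72 and 5.85 at day 4, with no overlap with Naive on either day. It fell from Naive by 1.22 ± 0.40 at day 1 (adjusted p = 0.0289) and by 2.18 ± 0.40 at day 4 (adjusted p = 5.39e-05). The day 1 call was lost without pool 15, 19 or 20 (adjusted p from 0.104 to 0.158). Dendritic cell markers moved beside it, 5 of 9 called lower at day 1 and 7 of 9 at day 4, with a summed level of 11.51 to 11.65 in Naive cells and 10.10 to 10.96 in vehicle at day 4. Of all genes, 4.86% were lower at day 1 and 11.5% at day 4. The monocyte level was 12.27 to 12.38 in Naive cells and 12.64 to 13.46 in vehicle at day 4, but the means of its markers went both ways. F13a1 (10.99 to 12.11), Chil3 (10.68 to 11.26), Fcgr4 (7.81 to 8.57) and Ms4a4c (5.49 to 5.75) were higher. Ly6c2 (9.20 to 8.61), Plac8 (7.96 to 7.18), Nr4a1 (6.91 to 6.58), Treml4 (6.65 to 5.21) and Spn (6.34 to 6.17) were lower. The part of the dendritic cell and monocyte markers in the Ccr2 values was not tested. The receptor was lower while its ligands Ccl2 and Ccl12 were, in pools 12 and 15, higher in vehicle at day 4 than in Naive cells. No chemical gave a call for it. The array of TPhP from pool 12 stood low at both days, at 5.23 and 3.89 against 6.66 to 7.18 and 6.37 to 6.98 in the other pools. Its monocyte level was low too, at 11.77 (12.68 to 13.03 in the others) and 11.57 (12.45 to 13.42). So was its neutrophil level, at 10.75 (11.63 to 11.75) and 9.45 (11.67 to 12.71). The macrophage level was low at day 1, at 14.185 (14.63 to 14.75), but not at day 4, at 14.30 (14.29 to 14.70). The part of these levels in its Ccr2 values was not tested.

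Ccr3, the eosinophil receptor of the eotaxins, was called most often. It was at 6.67, 6.16, 6.54 and 6.36 in Naive cells, at 5.56, 5.32, 6.01 and 5.80 in vehicle at day 1 and at 5.54, 4.67, 5.30 and 5.22 at day 4, a fall of 1.25 ± 0.31 from Naive to day 4 (adjusted p = 0.00163). At day 1 it was at 4.42, 4.28, 4.83 and 3.95 with Rosi, at 4.44, 4.11, 4.51 and 4.42 with LG268 and at 4.59, 4.14, 4.39 and 4.11 with TBT, all below every vehicle array. Many of these values are close to the table's median of 4.05, so the sizes are uncertain.

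With Rosi Ccr3 fell by 1.30 ± 0.31 at day 1 (adjusted p = 0.00349) and by 1.81 ± 0.31 at day 4 (adjusted p = 3.06e-06). The falls were 1.30 with LG268 (adjusted p = 0.0453) and 1.36 with TBT (adjusted p = 0.0148) at day 1, and 0.99 (adjusted p = 0.0404) and 1.34 (adjusted p = 0.0013) at day 4, all ± 0.31 and in 4 of 4 pools. TPhP and MEHP were not called on either day (differences from -0.95 to -0.47). The day 1 call was lost for Rosi without pool 20 (adjusted p = 0.147), and for LG268 and TBT without pool 15, 19 or 20, with differences from -1.42 (TBT without pool 15) to -1.24 (LG268 without pool 19) and adjusted p from 0.117 to 0.898. That of LG268 at day 4 was lost with any pool left out (adjusted p from 0.0768 to 0.187). The calls of Rosi and TBT at day 4 held with each pool left out. Of the eosinophil list 4 of 7 markers measured passed the filter, none was called in any chemical comparison, and 3 to 5 of the 7 lay below the table's median in each group. From Naive to vehicle at day 4, Siglecf fell by 0.95 ± 0.17 (adjusted p = 4.03e-05) and Prg2 differed by -0.83 ± 0.46 (adjusted p = 0.173), and the summed eosinophil level was 7.06 to 7.86 in Naive cells and 6.38 to 8.08 in vehicle. The part of eosinophil RNA in the Ccr3 values was not tested.

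**Figure D5:**
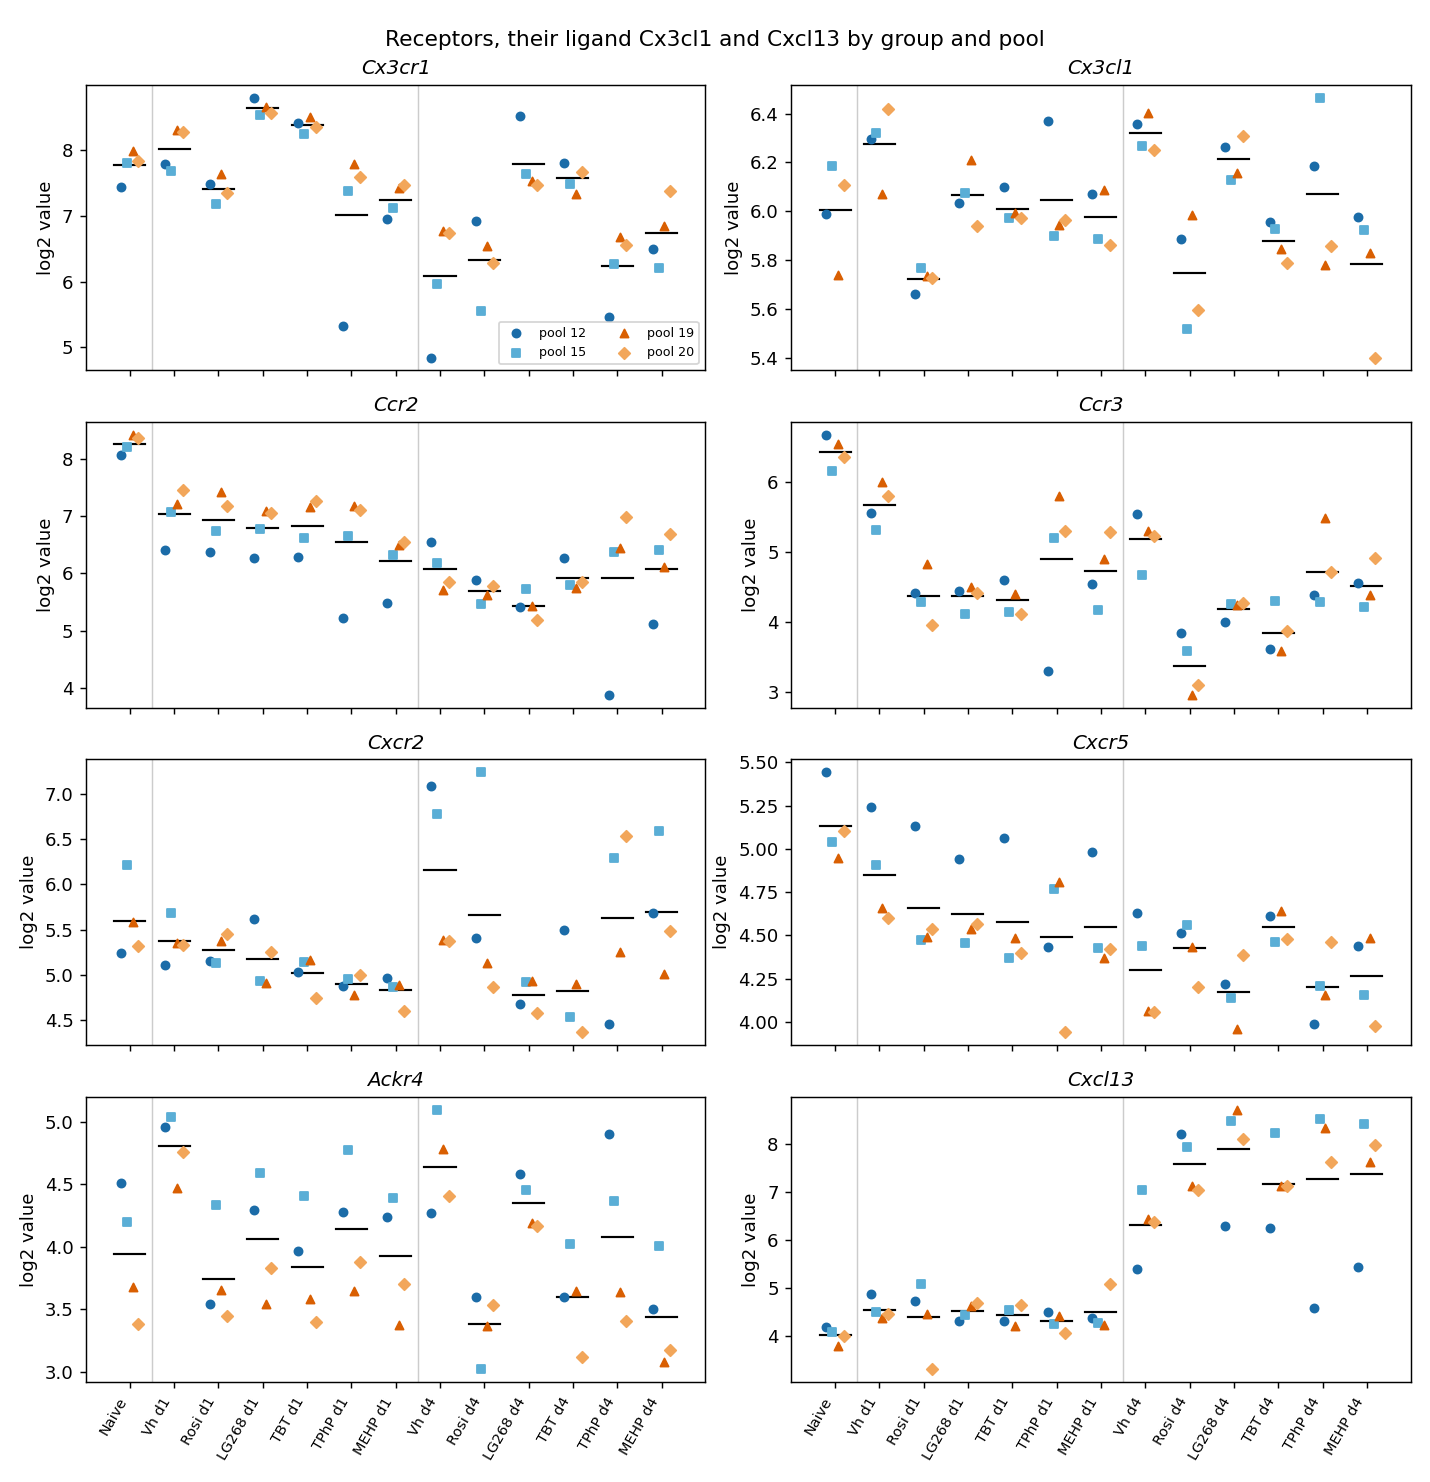
Log2 values of Cx3cr1, Cx3cl1, Ccr2, Ccr3, Cxcr2, Cxcr5, Ackr4 and Cxcl13 in 13 groups, with a marker for each pool and a bar at the mean of 4 arrays. Cx3cr1 with LG268 and TBT at day 4 lies above all vehicle arrays of that day, Ccr2 steps down from Naive to day 4, and Ccr3 lies below vehicle with Rosi, LG268 and TBT on both days.

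Among the atypical receptors, Ackr4 clears Ccl19, Ccl21 and Ccl25. It was at 3.38 to 4.51 in Naive cells and at 4.47 to 5.04 in vehicle at day 1, a rise of 0.86 ± 0.29 (adjusted p = 0.0344; 0.127 without pool 19 and 0.25 without pool 20). Against vehicle it fell with Rosi by 1.06 ± 0.29 at day 1 (adjusted p = 0.0154) and 1.26 ± 0.29 at day 4 (adjusted p = 0.000363), and at day 4 with TBT by 1.04 ± 0.29 (adjusted p = 0.00902) and with MEHP by 1.19 ± 0.29 (adjusted p = 0.00189). At day 4 the vehicle arrays read 4.27, 5.09, 4.78 and 4.40 and those of Rosi 3.60, 3.02, 3.37 and 3.53. Most of the lower arrays lie under the table's median, so the true sizes may differ. The Rosi call at day 1 was lost without pool 12, 19 or 20 (adjusted p from 0.0606 to 0.148), that of TBT without 19 (0.0613) or 20 (0.0761) and that of MEHP without 19 (0.0548). LG268 at day 4 gave -0.29 ± 0.29 and no call. With the block, calls were added for TBT and MEHP at day 1 (0.00468 and 0.0143, from 0.171 and 0.259) and for TPhP at day 4 (0.0394, from 0.195).

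Ackr3, which clears Cxcl12, rose by 0.44 ± 0.16 in vehicle at day 4 over Naive (adjusted p = 0.0386) and fell by 0.38 ± 0.16 with Rosi at day 4 (adjusted p = 0.0489). The first was lost without pool 12, 15 or 20 (adjusted p from 0.0536 to 0.451) and the second with any pool left out (adjusted p from 0.0611 to 0.152). Ackr2, which clears inflammatory CC chemokines, and Ccrl2, which binds chemerin, were not called against vehicle or Naive apart from Ccrl2 with the block, given above. The remaining members tested, among them Ccr7, Ccr10, Cxcr1, Ccl1, Ccl20, Ccl25, Ccl27a, Ccl28 and Cxcl17, had no call without the block in the 13 comparisons.

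Direct tests between chemicals gave more calls against Rosi than between LG268 and TBT at day 4. LG268 against Rosi gave 13 of 43 members (11 higher and 2 lower) where 47.8% of all genes were called (26.3% higher and 21.5% lower), and TBT against Rosi gave 7, all higher, where 38.1% were (20.1% higher and 18% lower). With the block these counts were 18 and 8. Cxcl14 was higher by 2.76 ± 0.39 with LG268 (adjusted p = 1.37e-07) and by 2.44 ± 0.39 with TBT (adjusted p = 3.08e-06), and Cx3cr1 by 1.47 ± 0.36 (adjusted p = 0.000631) and 1.25 ± 0.36 (adjusted p = 0.00445). Cxcl16, Cxcr4, Ccl6, Ccl9 and Ccr1 were also higher than with Rosi in both. LG268 alone was called higher for Ccr3, Ackr4, Cx3cl1 and Cxcr3 and lower for Ccl28 (-0.37 ± 0.13) and Ackr2 (-0.41 ± 0.15). With TBT against Rosi, calls were lost without pool 12 for Ccl9 (0.73) and Ccr1 (1.18), without 15 for Cx3cr1 (1.02, adjusted p = 0.0781), without 19 for Ccr1 (1.45) and without 20 for Ccr1 (1.61) and Cxcr4 (0.69). Those of LG268 against Rosi were lost for Ackr2 and Cxcr3 without pool 12, 19 or 20, for Ccr3 without 15, 19 or 20 and for Ccl28 without 20, with adjusted p from 0.051 to 0.303.

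Between TBT and LG268 at day 4, 1 member was called, where 3.35% of all genes were (2.55% higher and 0.798% lower), and 2 with the block. Cxcl16 was lower with TBT by 0.57 ± 0.15 (adjusted p = 0.0235), and its call was lost without pool 19 (-0.43, adjusted p = 0.471) or 20 (-0.52, adjusted p = 0.417). For Cxcl14 the difference was -0.31 ± 0.39, for Cx3cr1 -0.22 ± 0.36, for Cxcr2 0.05 ± 0.38 and for Ccr3 -0.35 ± 0.31. Ackr4 was lower with TBT by 0.75 ± 0.29 with no overlap of the arrays (adjusted p = 0.184, and 0.0199 with the block). At day 1 LG268 exceeded Rosi in Cx3cr1 (1.22 ± 0.36, adjusted p = 0.026; 6.99% of all genes called, 3.38% higher and 3.61% lower), a call lost without pool 15, 19 or 20 (adjusted p from 0.119 to 0.183). The block added Ccl6 (1.59 ± 0.53, adjusted p = 0.0584, and 0.00371 with the block), Cxcl14 and Ackr3. TBT against Rosi at day 1 gave no member (2.61% of all genes; 4 members at an unadjusted p below 0.05, and 2 calls with the block), and TBT against LG268 none (0% of all genes, and no member at an unadjusted p below 0.05). These comparisons share groups with those against vehicle and are not independent of them.

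The change of a chemical's difference from day 1 to day 4 was called for 1 member. Ccl9 under Rosi differed from vehicle by -0.94 ± 0.37 more at day 4 than at day 1 (adjusted p = 0.0486; 30% of all genes called, 14.4% higher and 15.6% lower), lower in 3 of 4 pools, and with the block Ccl3, Cxcl14 and Cxcr4 were added. Without the Rosi array of pool 15 that difference was -1.42, and its call was lost without pool 12 (-0.62, adjusted p = 0.337), 19 (0.216) or 20 (0.161). For LG268 (0.0805% of all genes), TBT (1.77%), TPhP (4.49%) and MEHP (6.36%) no member was called, though 5, 3, 2 and 1 members had an unadjusted p below 0.05 and the block gave MEHP 2. Without the block, a member called on one day alone was thus, apart from Ccl9, not shown to differ between days. With the block the change was also called under Rosi for Ccl3 (adjusted p = 0.00205), Cxcl14 (0.00526) and Cxcr4 (0.0378). The 2 calls for MEHP with the block were Ccl3 (0.0105) and Cx3cr1 (0.0474).

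Genes that work with chemokines were also called under Rosi at day 4, where 27.7% of all genes were lower and 21.3% higher. Of 29 genes of receptor signalling, 20 were called lower and 4 higher, such as Elmo1 (-1.41 ± 0.12), which links receptors to Rac, and the G protein subunits Gnai2 (-0.69) and Gng2 (-0.95), while Gnai1 was higher (1.53). Of 24 genes on a list of chemokine inducers, their signals and inhibitors of these, 17 were lower and 1 higher. Among the lower ones were the interleukin 1 antagonist Il1rn (-1.64), Ifngr2 (-0.78), Il17ra (-0.82) and Tnfrsf1b (-1.14). This second list mixes activators with inhibitors, so its counts give no single direction of induction. Of 11 other genes of the system, 6 were lower and none higher, among them the chemerin receptor Cmklr1 (-1.72). Their medians were -0.70, -0.64 and -0.91 beside -0.05 for all genes tested. With LG268 at day 4, 4.21% of all genes were higher and 2.26% lower. These lists had, in turn, 2 higher and 1 lower, 4 higher and none lower, and none higher and 1 lower. The 4 genes of the second list that rose were Ifngr1, Nfkb2, Tnfaip3 and Relb. In vehicle at day 4 against Naive, 17.4% of all genes were higher and 11.5% lower. There 10 signalling genes were lower and 1 higher, and 6 genes of the second list were higher and 4 lower. Of 10 glucocorticoid targets 9 were higher, as with Fkbp5 (2.09), in a medium that holds dexamethasone.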

How the data were processed

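The authors deposited a table of log2 values for the 52 arrays. Per the submitters' processing notes it came from oligo in R 3.3.1. How background was corrected and arrays were normalized is not stated in the labels. Of 41345 probe sets, 23521 named 1 gene, 1814 several and 16010 none. Only the first were used, the highest-mean probe set standing for a gene. All 13 groups entered a single limma fit (39 residual degrees of freedom, two-sided, Benjamini-Hochberg adjustment over 14911 genes, threshold 0.05), checked on simulated data. The number in each title, which is also the sample's source name, was read as the pool of animals, per the labels. Arrays of a number share animals, and with group means removed 43 of 52 correlated best with their own number, so values with the pool as a replicate block stand beside a result where they change its call. The block ended none of the 49 member calls.

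Members are named where called in any of 13 comparisons of a group with vehicle or Naive, where among the 10 highest means, or as receptor or main ligand of those; list genes are the called ones with the smallest adjusted p. Chemicals were also compared between days and with each other. Members and lists were chosen with earlier results of these data known. Summed list levels add values on the linear scale, so the strongest signals of a list weigh most. Alternatives were the block, only the arrays compared, averaging a gene's probe sets, cyclic loess, dropping the filter or raising it to 6.34, each pool left out, and 2 fits chosen after seeing the data, each without 1 array. The number of arrays limits the precision. R 4.3.3 and limma 3.58.1 were used, with Python 3.11.15, pandas and matplotlib.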

Additional observations from a re-analysis of the deposited data

Results flagged for a closer look

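In groups of 4 arrays, 8 of 73 sets of values held 1 array whose gap to the nearest other exceeded 0.829 of the group's range, a limit that chance passes in about 1 group in 20. Different sets share arrays and are not independent, so their count cannot be set against that rate. In Rosi at day 4 it was the array of pool 15 in 5 members, standing high at 7.91 for Ccl12, 8.81 for Ccl2, 12.09 for Ccl9, 8.52 for Ccr1 and 5.63 for Cxcr3. In LG268 at day 4 it was the array of pool 12, low for Ccr3 (4.00) and high for Cx3cr1 (8.51). In vehicle at day 4 the array of pool 12 was high for Cxcr3 (6.35). Between days, the Rosi difference of Ccl9 changed by -0.94 from day 1 to day 4, by the test of that change itself.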

How the results depend on the processing

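Arrays of a number share a pool of animals, and the replicate block on pool ended none of the 49 member calls. It moved counts of members called to 14 (Vh_D4 against Naive), 5 (Vh_D4 against Vh_D1), 2 (LG268_D1), 3 (TBT_D1), 2 (MEHP_D1), 9 (LG268_D4), 2 (TPhP_D4), 5 (MEHP_D4), 4 (Rosi, change between days), 2 (MEHP, change between days), 4 (LG268_D1 against Rosi_D1), 2 (TBT_D1 against Rosi_D1) and 2 (TBT_D4 against LG268_D4). With only the arrays compared in the fit, and so fewer samples, counts were 8 (Vh_D1 against Naive), 8 (Rosi_D1), 3 (TBT_D1), 1 (MEHP_D1), 6 (Rosi_D4), 2 (LG268_D4), 1 (MEHP_D4), 0 (Rosi, between days), 6 (LG268_D1 against Rosi_D1), 3 (TBT_D1 against Rosi_D1) and 4 (TBT_D4 against Rosi_D4), and 18 of the 49 calls were lost. Cyclic loess gave 0 for LG268_D1 and for Rosi between days, as did no filter, and lost 3 and 6 calls; the cause was not tested. The stricter filter, which tests fewer genes, gave 5 (Vh_D4 against Naive), 1 (Rosi_D1), 0 (LG268_D1 and TBT_D1) and 2 (LG268_D1 against Rosi_D1). Leaving out pools or, after seeing the data, 1 array of Rosi_D4 or TPhP_D1, counts ran from 0 to 5 (Vh_D1 against Naive), 7 to 10 (Vh_D4 against Naive), 1 to 5 (Vh_D4 against Vh_D1), 1 to 3 (Rosi_D1), 0 to 1 (LG268_D1), 0 to 2 (TBT_D1), 0 to 2 (MEHP_D1), 7 to 22 (Rosi_D4), 2 to 4 (LG268_D4), 4 to 6 (TBT_D4), 0 to 4 (TPhP_D4), 1 to 5 (MEHP_D4), 0 to 4 (Rosi between days), 0 to 2 (TPhP and MEHP between days), 0 to 1 (LG268_D1 and TBT_D1 against Rosi_D1), 9 to 15 (LG268_D4 against Rosi_D4), 5 to 10 (TBT_D4 against Rosi_D4) and 0 to 1 (TBT_D4 against LG268_D4). Without the pool 12 array TPhP_D1 still gave 0. No call reversed under these alternatives, and the mean of probe sets lost none. The counts in this section stand without the share of all genes called in the same fit, so they do not set members against all genes. Signals near the table's median limit Ccr3, Ackr4, Ccl12 under Rosi at day 4 and Cxcl13 in Naive cells.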
